A study of Mus musculus with 13 samples.

Results

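Autophagy and mitophagy genes were examined in enriched Sertoli cells of adult mice as a set of 39 genes, listed by name as parts of the known machinery. All 39 were found by exact symbol among the 27111 features with a gene name, and all 39 passed the filter on low counts that left 14421 genes for testing. The samples came from wild-type males (Bl6 wt in the labels, C57Bl/6J in the methods) of 3 to 5 months of age. They comprised 6 controls raised without manipulation and 7 males exposed to MSUS. MSUS is a model of early postnatal stress which combines irregular daily absence of the dam with stressors applied to the dam. Pups were kept apart from the dam for 3 h per day on postnatal days 1 to 14. The stressor was a swim of 5 min in water at 18 °C or restraint for 20 min. Each library came from the sorted cells of one male, and the litters and cages of the animals were not part of the comparison. The sort kept diploid, large cells with a high MitoTracker signal in both groups, so that mitophagy genes were measured in cells gated on a mitochondrial stain. The comparison asks whether transcripts of this machinery differed in adult Sertoli cells after early postnatal stress.

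Autophagy encloses cytoplasm in a double membrane, the autophagosome, which fuses with lysosomes so that its content is degraded. A kinase complex around ULK1 starts the process, a class III PI3-kinase complex marks the membrane with lipid, ATG9 and ATG2 proteins supply lipid, and a conjugation cascade attaches ATG8 proteins (the LC3 and GABARAP families) to the membrane, where receptors dock cargo. Mitophagy is the selective removal of mitochondria by this route. Sertoli cells phagocytose residual bodies and dying germ cells, and lysosomal degradation is part of that work.

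The estimated counts of a library summed to between 13087203 and 18649945 for controls and between 12701776 and 15693938 for MSUS males, and every pair of libraries differed by more than sampling noise. Levels are given as log2 CPM, the count as a share of the TMM-scaled library size over features with a gene name. Those features held 9937178 to 14383367 counts in controls and 9776853 to 11876822 in MSUS samples. The 7 Sertoli markers had a mean level of 9.94 ± 0.09 log2 CPM (SD, 6 controls) and of 9.91 ± 0.09 after MSUS (7 samples). Transcripts of other testicular cells were present as well, with mean levels in controls of 7.58 for elongated spermatid markers, 5.27 for spermatocyte markers, 3.52 for round spermatid markers and 2.40 for Leydig cell markers. Of 57 markers of 10 cell types, 43 were tested and 0 had an unadjusted p under 0.05 in limma. In such bulk samples, fewer cells of a type and less RNA per cell cannot be told apart.

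No autophagy or mitophagy gene differed between MSUS and control samples after adjustment over all genes. In limma with voom, 0 of 39 had an adjusted p under 0.05, as was so for 0% of all genes, and the smallest adjusted p of any gene was 0.878. At an unadjusted p under 0.05 the count was again 0 of 39, compared with 5.42% of all genes tested (2.4% lower and 3.02% higher in MSUS). For 0 of the 39 genes did the 6 control and 7 MSUS values separate without overlap, against 0.139% of all genes. The log2 fold change (MSUS minus control) was below 0 for 23 genes and above 0 for 16, with 50.5% of all genes below 0.

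Estimated differences were small. The median log2 fold change of the 39 genes was -0.02, with -0.0018 as the median over all genes, and single genes ranged from -0.19 for *Atg4a* to 0.20 for *Ulk1*. The 95% interval of the fold change lay within 1.5-fold in either direction for 38 of the 39 genes, and for 71.1% of all genes tested. *Atg10*, which encodes the E2-like enzyme that passes ATG12 to ATG5, was the exception with an interval from -0.42 to 0.61 on the log2 scale. Its counts were the lowest of the set, between 25 and 79 per library.

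**Figure D1:**
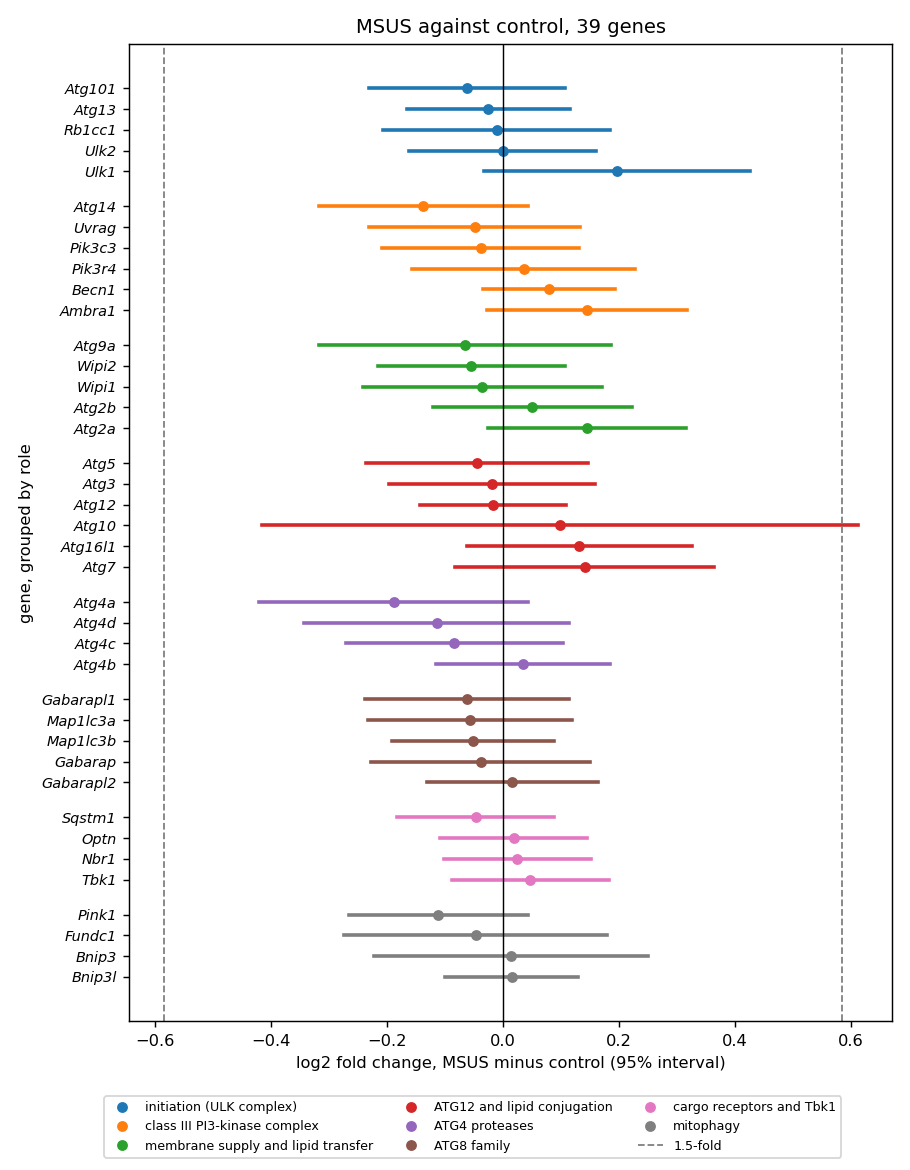
Log2 fold change (MSUS minus control, x axis) of each of the 39 genes (y axis, grouped and coloured by role) with its 95% interval as a horizontal line, and dashed lines at 1.5-fold. All 39 intervals include 0, and that of Atg10 is the only one that crosses a dashed line.

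To compare levels between genes, CPM was divided by the length of the longest annotated transcript. In controls, the 39 genes had a median of 3.66 log2 CPM per kilobase, and 32 of them were above the median of all genes with a known length (2.80, 13379 genes). The order ran from *Optn* at 6.66 ± 0.10 log2 CPM per kilobase (SD, n = 6) down to *Atg10* at 1.27 ± 0.48. By role, the cargo receptors with *Tbk1* (median 5.97) and the ATG8 family (5.82) were highest. The mitophagy genes followed at 4.65, and the ATG4 proteases were lowest at 2.73. The same 10 genes filled the first 10 ranks when the merged length of all exons was used in place of the longest transcript, with *Optn* and *Sqstm1* first and second and *Atg4d* and *Atg10* last under both lengths. The SD of log2 CPM between controls was below the median SD of all genes (0.198) for 36 of 39. The median SD of the 39 was 0.126, and it was 0.169 for the 11046 genes whose level lay between those of the lowest and the highest of the 39. That range is wide (1.93 to 8.15 log2 CPM), so the sets were not matched for level. The part of level in the difference of SD was not tested.

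**Figure D2:**
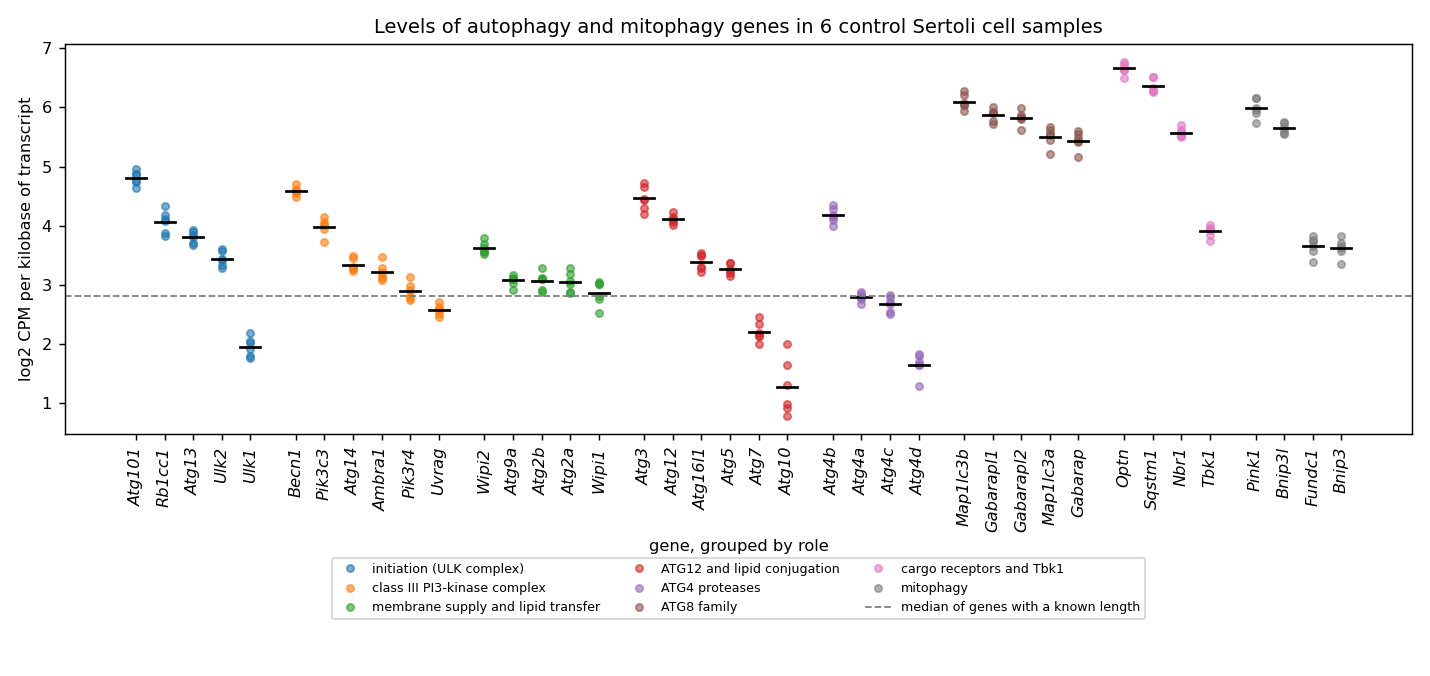
Level of each gene in log2 CPM per kilobase of transcript (y axis) in the 6 control samples, with 1 point per animal, genes on the x axis grouped and coloured by role, and a dashed line at 2.80, the median of the 13379 genes with a known length. The ATG8 genes and the receptors Optn, Sqstm1 and Nbr1 sit above 5, and Atg10 has the widest spread.

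The ULK complex, which starts autophagy in response to nutrient and energy signals, held the gene with the smallest p of the set. *Ulk1*, the kinase itself, had log2 CPM values with a lowest, median and highest of 4.15, 4.35 and 4.56 in controls and of 4.30, 4.53 and 4.93 in MSUS samples. The groups overlapped, although 6 of 7 MSUS samples were above the control mean and 3 above every control. Its log2 fold change was 0.20 (SE 0.11, 95% interval -0.03 to 0.43), with an unadjusted p of 0.0882 and an adjusted p of 0.878 in limma. The other 4 genes of the complex had fold changes close to 0. The related kinase *Ulk2* differed by -0.00096 on the log2 scale, the scaffold *Rb1cc1* (FIP200) by -0.01, and the adaptors *Atg13* and *Atg101* by -0.03 and -0.06. Per kilobase, *Ulk2* (3.44 log2 CPM) was above *Ulk1* (1.95) in controls.

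The class III PI3-kinase complex makes the phosphatidylinositol phosphate that recruits later factors, and its 6 genes were split, with 3 higher and 3 lower values in MSUS and a median log2 fold change of -0.0019. *Becn1* (Beclin 1), the regulatory core of the complex, ranged in controls from 6.61 over a median of 6.71 to 6.83 log2 CPM, and in MSUS samples from 6.68 over 6.78 to 6.87. For this gene 6 of 7 MSUS samples lay above the control mean, within largely the same range. The fold change was 0.08 (SE 0.05) with an unadjusted p of 0.160 and an adjusted p of 0.878 in limma. *Atg14*, the subunit that directs the complex to autophagosome formation, had 5.12, 5.19 and 5.38 log2 CPM as lowest, median and highest control value, and 4.87, 5.12 and 5.30 in MSUS. Here 4 of 7 MSUS samples were below every control and the others lay among them. The log2 fold change was -0.14 (SE 0.09, limma adjusted p 0.878, unadjusted 0.125). *Ambra1*, which links Beclin 1 to the ULK complex, had values of 5.46, 5.56 and 5.84 in controls and of 5.54, 5.71 and 6.003 in MSUS. Here 1 MSUS sample was above all controls, and the difference of 0.14 (SE 0.08) had an adjusted p of 0.878 in limma (unadjusted 0.0957). The lipid kinase *Pik3c3* (VPS34), its partner *Pik3r4* and *Uvrag*, a subunit of the form acting on endosomes, differed by -0.04, 0.04 and -0.05 on the log2 scale.

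**Figure D3:**
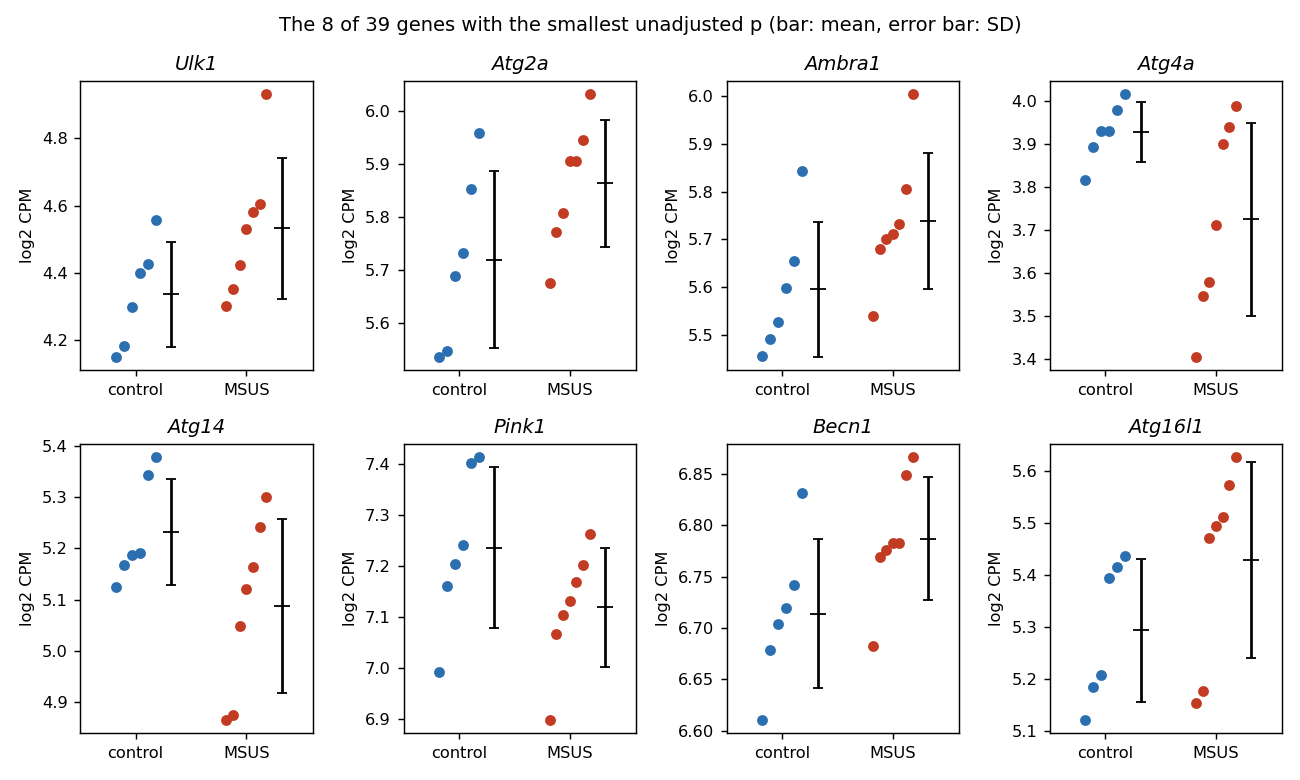
Log2 CPM (y axis) in 6 control and 7 MSUS samples (x axis) for the 8 genes with the smallest unadjusted p, with 1 point per animal sorted by value, a bar at the mean and an error bar for the SD. In all 8 panels the values of the groups overlap.

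Among the genes for membrane supply, *Atg2a*, a lipid transfer protein, was measured at a lowest, median and highest of 5.53, 5.71 and 5.96 log2 CPM in controls and 5.68, 5.91 and 6.03 in MSUS. Most MSUS samples were in the upper part of the control range and 1 was above it. The log2 fold change was 0.14 (SE 0.08), with an unadjusted p of 0.0933 and an adjusted p of 0.878 in limma. The paralog *Atg2b* differed by 0.05. The lipid-binding effectors *Wipi1* and *Wipi2* differed by -0.04 and -0.05.

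*Atg9a*, the scramblase of the vesicles that seed the autophagosome, varied most between MSUS animals in this group of genes. Its values were 4.99, 5.17 and 5.24 log2 CPM in controls and 4.63, 5.02 and 5.63 in MSUS, with 3 MSUS samples below every control and 2 above every control. The SD was 0.09 in controls and 0.32 in MSUS, and the log2 fold change was -0.07 (SE 0.12). The highest value belonged to MSUS 11 (the number is the animal's), which also had the highest mean level of the 6 round spermatid markers, 4.35 log2 CPM. In controls this mean ranged from 3.35 to 3.64, and in MSUS samples it began at 3.30. The summed level of these markers was 81.0 to 97.8 CPM in controls and 82.1 to 163 CPM in MSUS, with none of the 6 at 0. MSUS 11 also had the highest mean level of the elongated spermatid markers (8.21 log2 CPM) and of the spermatocyte markers (5.61 log2 CPM). The part of any of these markers in the *Atg9a* values was not tested.

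Spermatid transcripts varied more in MSUS samples. Among the alternatives, the same test was run with the mean level of each spermatid marker list as a covariate. With round spermatid markers, the count of genes at an unadjusted p under 0.05 became 4 of 39, with 10.1% of all genes tested at that p. These were *Ulk1* (log2 fold change 0.28), *Atg2a* (0.19), *Atg16l1* (0.21) and *Atg9a* (-0.19), and the lowest adjusted p among them in limma was 0.390. With elongated spermatid markers, whose mean lay between 7.20 and 7.81 log2 CPM for controls and between 6.95 and 8.21 for MSUS, the count was 2 of 39 (*Ulk1* and *Atg2a*) beside 7.97% of all genes. After adjustment over all genes, 0 passed in either fit.

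The conjugation machinery first joins ATG12 to ATG5 and then, with ATG16L1, couples ATG8 proteins to phosphatidylethanolamine. *Atg16l1*, which sets the site of this step, ranged in controls from 5.12 over a median of 5.30 to 5.44 log2 CPM, and in MSUS from 5.15 over 5.49 to 5.63. The MSUS values formed 2 clumps, as 5 of 7 were above every control and the other 2 were near the lowest controls. The log2 fold change was 0.13 (SE 0.09), with an unadjusted p of 0.173 and an adjusted p of 0.879 in limma. *Atg7*, the E1-like activating enzyme, had a log2 fold change of 0.14 (95% interval -0.08 to 0.36). The ubiquitin-like *Atg12*, its target *Atg5* and the E2-like enzyme *Atg3* differed by -0.02, -0.05 and -0.02. Per kilobase in controls, *Atg3* (4.46 log2 CPM) was the highest of the 6 and *Atg10* the lowest.

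ATG4 proteases trim newly made ATG8 proteins and later release them from membranes, and 3 of the 4 had lower values in MSUS, with a median log2 fold change of -0.10. *Atg4a* had 3.82, 3.93 and 4.01 log2 CPM as lowest, median and highest value in controls, and 3.41, 3.71 and 3.99 in MSUS. The MSUS samples spread over a wider range, with 4 of 7 below every control and 3 inside the control range. The log2 fold change of -0.19 (SE 0.11, 95% interval -0.42 to 0.04) was the lowest of the 39, with an unadjusted p of 0.104 and an adjusted p of 0.878 in limma. Part of the *Atg4a* sequence is not unique: 60.8% of its 31-base stretches also occur in the transcript of the pseudogene *Atg4a-ps*, so that its counts are uncertain. *Atg4d* (-0.11), *Atg4c* (-0.08) and *Atg4b* (0.03) differed less. Per kilobase, *Atg4b* was the most abundant at 4.17 log2 CPM and *Atg4d* the least at 1.65. When the 4 genes were averaged as the deviation from the control mean, control values ran from -0.090 to 0.14 and MSUS values from -0.15 to -0.024 on the log2 scale, which overlap.

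The ATG8 proteins mark autophagosomes and bind receptors, and all 5 genes were abundant. *Map1lc3b* (LC3B), the usual marker protein of autophagosomes, had 2688 to 3783 counts per library, and log2 CPM values of 7.99, 8.11 and 8.33 (lowest, median, highest) in controls and 7.89, 8.14 and 8.20 in MSUS. *Map1lc3a* (LC3A) had 5.37, 5.70 and 5.82 in controls and 5.39, 5.57 and 5.72 in MSUS. For both genes the MSUS values lay within or next to the control range, with log2 fold changes of -0.05 (SE 0.07) and -0.06 (SE 0.08).

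Values of the GABARAP family were similar between groups. *Gabarap* had 5.60, 5.89 and 6.03 log2 CPM in controls and 5.44, 5.89 and 5.93 in MSUS, where 1 sample fell below the control range. *Gabarapl1* had 6.59, 6.77 and 6.87 in controls and 6.42, 6.64 and 6.87 in MSUS, where 3 samples were below every control and the others inside the control range. *Gabarapl2* had 6.36, 6.58 and 6.73 in controls and 6.46, 6.53 and 6.76 in MSUS. The log2 fold changes were -0.04 (SE 0.09), -0.06 (SE 0.08) and 0.02 (SE 0.07) in that order, and the smallest limma adjusted p of the 5 ATG8 genes was 0.930. With 5 genes, 4 differences were below 0 and the median was -0.05.

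Within the ATG8 family, levels per kilobase in controls were ordered as *Map1lc3b* (6.10 log2 CPM), *Gabarapl1* (5.87), *Gabarapl2* (5.82), *Map1lc3a* (5.51) and *Gabarap* (5.44). *Map1lc3b* was above each of the others in 13 of 13 libraries. The neighbours *Gabarapl1* and *Gabarapl2* differed by 0.05 ± 0.09 within a control library, ranging from -0.06 to 0.17, which does not separate them. Likewise, *Map1lc3a* and *Gabarap* differed by 0.07 ± 0.11, from -0.06 to 0.23. The order depended on the length used. With merged exon length, *Gabarapl1* came first (5.73 log2 CPM per kilobase), followed by *Map1lc3a* (5.42), *Gabarapl2* (5.35), *Map1lc3b* (5.24) and *Gabarap* (4.99).

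Cargo receptors had small differences between the groups, and *Optn* and *Sqstm1* had the highest levels per kilobase of the 39 genes. *Optn* (optineurin), a receptor for ubiquitin-coated mitochondria and other cargo, was above 96.7% of genes per kilobase. Its log2 CPM values were 7.89, 8.05 and 8.16 (lowest, median, highest) in controls and 7.94, 8.03 and 8.27 in MSUS. *Sqstm1* (p62), the receptor for ubiquitinated protein aggregates, had 7.69, 7.72 and 7.94 in controls and 7.59, 7.72 and 7.91 in MSUS. The medians of these genes differed by less than the range within either group. *Nbr1*, a receptor related to p62, had 7.76, 7.82 and 7.97 in controls and 7.61, 7.86 and 7.997 in MSUS. The log2 fold changes of *Optn*, *Sqstm1* and *Nbr1* were 0.02 (SE 0.06), -0.05 (SE 0.06) and 0.02 (SE 0.06). *Tbk1*, the kinase that phosphorylates optineurin and p62, had 5.34, 5.53 and 5.61 log2 CPM in controls and 5.48, 5.53 and 5.61 in MSUS, a log2 fold change of 0.05 (SE 0.06). The limma adjusted p of these 4 genes was 0.937 or higher.

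Of the 4 mitophagy genes, *Pink1*, the kinase that accumulates on depolarized mitochondria and marks them for removal, had the largest difference. Its lowest, median and highest log2 CPM were 6.99, 7.22 and 7.41 in controls and 6.90, 7.13 and 7.26 in MSUS. The groups overlapped over most of their range, and 6 of 7 MSUS males had less than the control mean, 1 of them less than every control. The log2 fold change was -0.11 (SE 0.07, 95% interval -0.27 to 0.04), with an unadjusted p of 0.146 and an adjusted p of 0.878 in limma. *Bnip3l* (NIX), a receptor in the outer mitochondrial membrane, had 7.25, 7.35 and 7.45 in controls and 7.29, 7.35 and 7.50 in MSUS, and its log2 fold change of 0.01 (SE 0.05) was among the most tightly bounded of the set. *Bnip3*, its hypoxia-inducible relative, had 4.17, 4.45 and 4.64 in controls and 4.09, 4.45 and 4.74 in MSUS, a difference of 0.01 (SE 0.11). For both receptors the groups overlapped almost fully. *Fundc1*, a further outer membrane receptor, had 4.37, 4.69 and 4.81 in controls and 4.21, 4.57 and 4.87 in MSUS, with a log2 fold change of -0.05 (SE 0.11).

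The share of named counts on the 13 mitochondrially encoded genes was 1.26% to 2.48% in controls and 1.80% to 3.16% in MSUS samples. With this share as a covariate, the log2 fold change of *Pink1* was -0.046 and that of *Bnip3l* was -0.0066, and 0 of the 39 genes had an unadjusted p under 0.05. Per kilobase, *Pink1* (5.99 log2 CPM) and *Bnip3l* (5.65) were above *Fundc1* (3.66) and *Bnip3* (3.62). Besides *Atg4a*, sequence was shared with another gene's transcripts in over 10% of 31-base stretches for *Atg9a* (31.9%, mostly with *Gm29253*), *Bnip3l* (23.7%, *Bnip3l-ps*), *Bnip3* (20.3%, mostly *Gm16439*) and *Gabarapl2* (15.2%, mostly *Gm3724*), so their counts carry the same uncertainty. *Bnip3l-ps* was the partner with a row of its own, at no more than 14 counts in any library.

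The rest of the pathway was taken from a list of 69 further genes, all of which were tested. Of these, 37 had lower and 32 higher values in MSUS, with a median log2 fold change of -0.01. An unadjusted p under 0.05 was found for 7 of the 69 (4 lower, 3 higher), beside 5.42% of all genes, and 0 passed after adjustment (limma adjusted p 0.878 for each of the 7). By role, they were 4 of 20 genes for formation and fusion, 1 of 20 genes for cargo and mitophagy, and 2 of 29 genes for nutrient and transcriptional control. Of the 7, *Tfeb*, *Ykt6* and *Tecpr1* had an unadjusted p under 0.05 in each of 25 alternative analyses. The 7 were picked at that p in the same libraries, which the alternatives reuse, so this is no independent support. How many of all genes stayed under 0.05 throughout was not counted. The count of the 69 under 0.05 was 3 with the share of mitochondrially encoded counts as a covariate and also 3 without control 12. There *Rab7*, *Rptor*, *Tollip* and *Wdfy3* were no longer under 0.05, and 2.79% and 3.99% of all genes were. With peritubular myoid markers as a covariate (mean level 1.88 ± 0.87 log2 CPM in controls and 2.43 ± 0.99 in MSUS) the count was 4, without *Rab7*, *Rptor* and *Wdfy3*, beside 4.30% of all genes. Without control 9, control 14 or MSUS 5, *Rab7*, *Rptor* and *Wdfy3* were likewise above 0.05, beside 3.78%, 4.69% and 3.74% of all genes under it.

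Among the formation and fusion genes, *Ykt6*, a SNARE protein of autophagosome fusion, had 6.46, 6.65 and 6.70 log2 CPM (lowest, median, highest) in controls and 6.25, 6.33 and 6.65 in MSUS. Of the 7 MSUS samples, 6 were below every control, and the log2 fold change was -0.24 (SE 0.07). *Tecpr1*, a tethering factor of autophagosomes and lysosomes, had 5.54, 5.58 and 5.79 in controls and 5.76, 5.88 and 6.27 in MSUS, with 5 of 7 above every control and a log2 fold change of 0.29 (SE 0.09). *Wdfy3* (ALFY), a scaffold for aggregate clearance, differed by 0.35 (SE 0.14), and *Rab7*, the small GTPase of late endosomes and autophagosome maturation, by -0.12 (SE 0.06).

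In the other groups, *Tollip*, an adaptor for ubiquitinated cargo, differed by -0.16 (SE 0.06), with 5 of 7 MSUS samples below every control. *Rptor*, which encodes Raptor of the growth kinase complex mTORC1, differed by 0.23 (SE 0.10), with 4 of 7 above every control. *Tfeb*, a transcription factor that activates lysosomal and autophagy genes, had 5.05, 5.39 and 5.52 in controls and 4.73, 5.01 and 5.14 in MSUS. Here 4 of 7 MSUS samples were below every control, and the log2 fold change was -0.33 (SE 0.10). Its relatives *Tfe3* and *Mitf* each differed by -0.02.

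**Figure D4:**
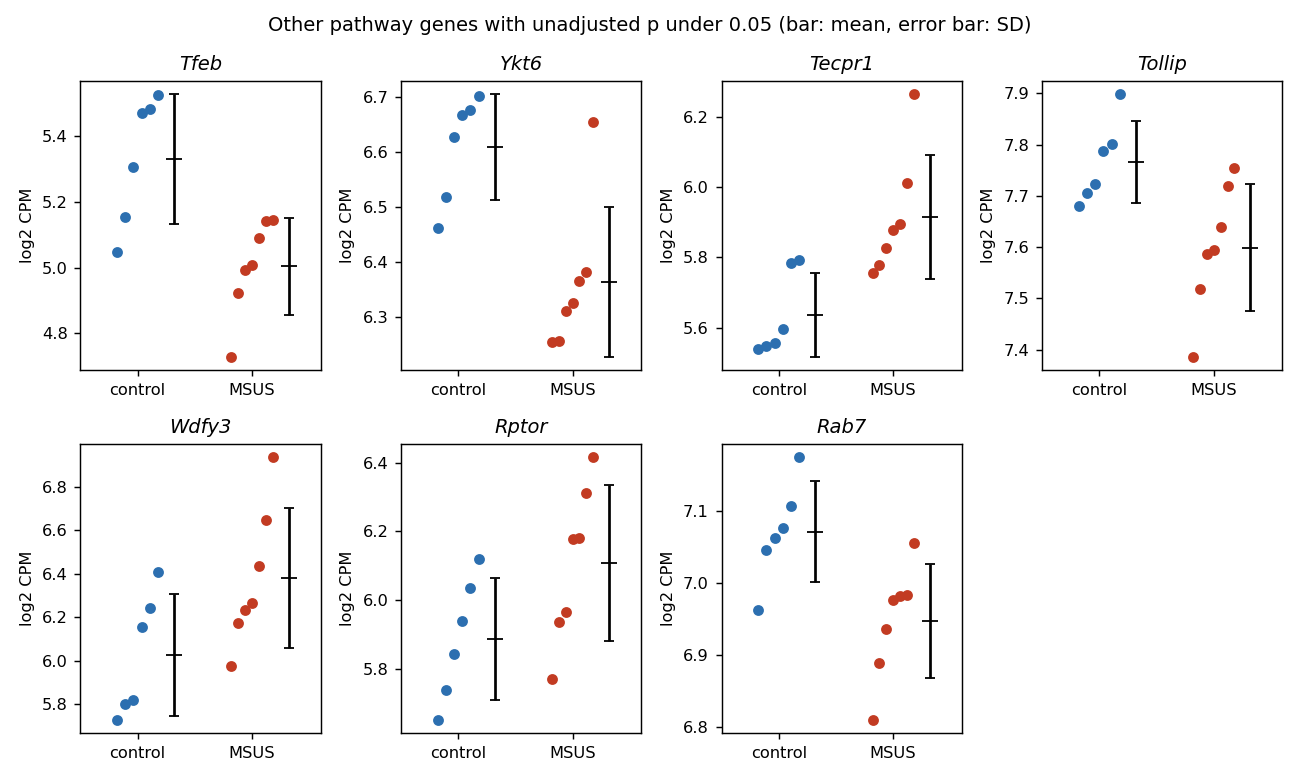
Log2 CPM (y axis) in 6 control and 7 MSUS samples (x axis) for the 7 further pathway genes with an unadjusted p under 0.05, with 1 point per animal sorted by value, a bar at the mean and an error bar for the SD. The MSUS mean is above the control mean for Tecpr1, Wdfy3 and Rptor and below it for the others, and values of the groups overlap in every panel.

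TFEB and its relatives are known to bind DNA containing the letters CACGTG, and this word was searched in the promoters of the 39 genes to show which of them carry it. Promoter sequences from RefSeq (GRCm38.p6), covering 250 bases before to 50 bases after a start annotated by RefSeq, were matched for 32 of the 39 genes. The word reads the same on both strands. It was present for 6 of the 32 genes (18.8%) and for 8.09% of all 27025 genes with a promoter sequence. The extended form TCACGTGA, which contains it, was present for 1 of 32 (3.12%) and for 1.12% of all. The 27025 genes include ones not tested here, whereas all 32 passed the filter on low counts. These shares therefore do not compare like sets, and no enrichment was tested. Each stretch below is written 5′ to 3′ on the strand of its gene, with the matched letters in capitals. *Atg3* has both forms.
Atg14: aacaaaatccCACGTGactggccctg
Atg5: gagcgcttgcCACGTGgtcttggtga
Atg7: tattggtggtCACGTGtgcagtaagt
Atg3, short form: ctccttttgtCACGTGtcctgggaga
Atg3, extended form: agagtcgagTCACGTGAggccttagg
Tbk1: cgcactcggtCACGTGctccgtggcc
Bnip3: gcacgcgccgCACGTGccacacgctc

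These stretches lie at chr14:47568420-47568445 (minus strand) for *Atg14*, chr10:44268315-44268340 (plus) for *Atg5*, chr6:114670954-114670979 (plus) for *Atg7*, chr10:121586774-121586799 (minus) for *Tbk1* and chr7:138909599-138909624 (minus) for *Bnip3*. For *Atg3* they lie at chr16:45158725-45158750 and chr16:45158748-45158773 (both plus). The starts used for *Atg7* and *Atg14* differ from the outer ends of these genes in GENCODE (chr6:114643097-114860614 and chr14:47540893-47570649), so their stretches lie within the gene spans. The 6 genes include 3 of the conjugation machinery (*Atg5*, *Atg7* and *Atg3*). The log2 fold changes were -0.14 for *Atg14*, -0.05 for *Atg5*, 0.14 for *Atg7*, -0.02 for *Atg3*, 0.05 for *Tbk1* and 0.01 for *Bnip3*, thus 3 below and 3 above 0. A match of letters does not show that a factor binds there.

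Coordinates of GRCm38 are given for 8 of the genes described. *Ulk1* lies at chr5:110784488-110810097 (minus strand), *Atg4a* at chrX:140956907-141164270 (plus), *Pink1* at chr4:138313409-138326307 (minus), *Optn* at chr2:5020642-5064051 (minus), *Sqstm1* at chr11:50199366-50210827 (minus) and *Map1lc3b* at chr8:121590361-121598760 (plus). *Atg13* (chr2:91674618-91710576, minus) and *Ambra1* (chr2:91730134-91918849, plus) are near each other on opposite strands of chromosome 2, and had log2 fold changes of -0.03 and 0.14.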

How the data were processed

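Salmon 1.1.0 (after Trim Galore 0.6.5, per the labels) was run by the authors on an index of GENCODE vM23, and the deposited values are estimated counts per gene, not normalized. Estimates were rounded to whole numbers for the fits. Of 54281 features, 27170 had no gene name and were left out. All columns matched a sample, and groups followed the sample labels, whose numbers are animal numbers. Genes were kept by filterByExpr, scaled by TMM (edgeR 4.0.16) and tested in limma 3.58.1 with voom (R 4.3.3), with Benjamini-Hochberg adjustment over all genes tested. Levels used a prior count of 2. DESeq2 1.42.0, edgeR's quasi-likelihood test, other scalings, filters, covariates and omission of each sample were alternatives. Gene coordinates and lengths are of GENCODE vM21 (GRCm38), an earlier release on the same build, so lengths may differ from those the authors used. Another pathway gene was left out of the further list and is not reported here. The members and lists were chosen with earlier results of these data known. The lowest, median and highest value per group are given for the ATG8 genes, receptors, mitophagy genes and the 8 members with the smallest p. Further pathway genes are named at an unadjusted p under 0.05. Other values by group or sample (such as *Atg9a*) were added after they were seen. Each sample is one mouse, so p-values measure the spread between mice. They treat the mice as independent, although MSUS was applied to dams and their litters. If littermates were among the samples, p-values and intervals could be too small.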

Additional observations from a re-analysis of the deposited data

Results flagged for a closer look

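In 3 of the 78 sets of values searched (39 genes in 2 groups), the highest or lowest sample stood apart from the rest of its group by Dixon's test, where chance gives about 1 in 20, or 3.9 sets. *Atg5* was highest in MSUS 13 at 4.77 log2 CPM, and the other MSUS samples lay between 4.26 and 4.47. *Atg4d* was lowest in control 10 at 3.86 log2 CPM, with the other controls between 4.21 and 4.40. *Gabarap* was lowest in MSUS 26 at 5.44 log2 CPM, with the other MSUS samples between 5.82 and 5.93.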

How the results depend on the processing

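Under each of 25 alternatives, 0 of the 39 genes passed an adjusted p under 0.05 (limma, edgeR or DESeq2), and the lowest adjusted p of any of them was 0.390. Of the 39 log2 fold changes, 22 kept their sign throughout and 17 changed it at least once, all of them 0.066 or less in size in the limma test. The median log2 fold change ranged from -0.035 to -0.0047. The gene with the fewest counts, *Atg10* (25 to 79 per library), had the widest interval. No paired analysis was run. The labels carry animal numbers only, none shared between the groups. The study lists a cage and a litter cage for each mouse, but litter and cage were not used here. The covariate of peritubular myoid markers was chosen after seeing the data. The cause of the changes below was not tested.

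Genes of the 39 with an unadjusted p under 0.05 numbered 4 with the round spermatid covariate, 2 with the elongated spermatid covariate, and 0 to 2 when 1 library was left out (2 without control 10, *Ulk1* and *Ambra1*, and 1 without control 14, control 22, MSUS 6, MSUS 11 or MSUS 13). Of the 69 further genes, 3 were under 0.05 with the mitochondrial share, 4 with the myoid covariate and 11 with the round spermatid covariate, against 7 in the test as reported, and 3 to 10 when 1 library was left out (3 without control 12, and 4 without control 9, control 14 or MSUS 5). Over all genes, 781 of 14421 (5.42%) were under 0.05 in the test as reported. The count was 403 (2.79%) with the mitochondrial share, 620 (4.30%) with the myoid covariate and 1451 (10.1%) with the round spermatid covariate. Without a filter it was 1182 of 23680 genes tested (4.99%). With 1 library left out it was 534 (3.74%) to 1121 (7.70%), and the number of genes tested changed as well. With merged exon length the median level was 3.26 log2 CPM per kilobase.

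Signs changed as follows. *Ulk2* was 0.0030 in edgeR, 0.0079 in DESeq2, 0.0028 with quality weights, 0.0035 with RLE factors, 0.0017 with a minimum of 1 CPM and 0.0039 with the myoid covariate. With quality weights *Rb1cc1* was 0.00027, *Atg12* 0.0010 and *Optn* -0.0076. With the mitochondrial share *Pik3r4* was -0.014, *Atg2b* -0.039, *Atg12* 0.011, *Atg5* 0.015, *Map1lc3a* 0.0056, *Gabarap* 0.030 and *Bnip3l* -0.0066. With the myoid covariate *Atg9a* was 0.0035 and *Bnip3l* -0.0037. With the elongated spermatid covariate *Atg13* was 0.0025 and *Bnip3* -0.045, with the round spermatid covariate *Bnip3* was -0.022, and with library size alone *Bnip3* was -0.0032 and *Bnip3l* -0.00051. Leaving out 1 library gave -0.044 to 0.034 for *Ulk2*, -0.065 to 0.043 for *Rb1cc1*, -0.11 to 0.0061 for *Wipi1*, -0.037 to 0.020 for *Atg12*, -0.064 to 0.033 for *Atg3*, -0.10 to 0.035 for *Gabarap*, -0.031 to 0.049 for *Gabarapl2*, -0.017 to 0.042 for *Optn*, -0.036 to 0.084 for *Bnip3*, -0.0084 to 0.035 for *Bnip3l* and -0.11 to 0.014 for *Fundc1*.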
